A study of Mus musculus with 27 samples.

Results

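Day 5 cytotoxic T lymphocytes (CTLs) that carried a let-7 transgene (let-7Tg) were compared with wild-type (WT) CTLs of the same age in culture, gene by gene. The comparison took the 3 let-7Tg and 3 WT libraries of day 5, 6 of the 27 libraries of the series, and every gene with enough reads, 13030 of 35275. All cells came from P14 mice, whose CD8 T cells carry 1 transgenic receptor for the gp33 peptide of LCMV, and by the study's methods the P14+ let-7Tg animals were Rag2-deficient, so that no endogenous receptors were rearranged. To make CTLs, cells of lymph nodes and spleens were put in culture with anti-CD3 (2 μg/mL) and irradiated splenocytes, received IL-2 (100 U/mL) after 48 h and were kept for 3 more days. The transgene encodes let-7g under doxycycline control. By the study's methods doxycycline was in the drinking water of experimental mice, controls included, before the cells were taken, and per the labels it was in the medium (2 μg/mL) of the day 5 cultures of every genotype, WT included. The remaining day 5 genotype, lin28Tg (Lin28bTg in the labels), expresses the let-7 inhibitor Lin28. Its 3 libraries entered the choice of tested genes, the scaling and the shared estimate of the spread behind the calls. Its own values are given below side by side only. The mice were of both sexes and 6 to 10 weeks old by the methods. The methods call the replicates biological, but how many animals made up a library is not given in the sources used here.

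The let-7 family are small RNAs that load into Argonaute and pair through their seed, bases 2 to 8, with sites in the 3′UTRs of mRNAs, which are then translated less and degraded. Naive T cells hold much let-7 and lose it after antigen stimulation, and forced let-7 expression keeps the family present while the cells divide and become effectors. Gene tables of this kind do not count mature miRNAs, so the transgene product itself was not measured here. The mature sequences are shown because the seed that they share fixes which target sites were counted further on. They are from RefSeq (GRCm38.p6), with the seed in capitals, for let-7g, which lies at chr9:106178846-106178867 on the plus strand, for the relatives let-7a and let-7f, for miR-98, and for let-7j, whose seed differs.
let-7g-5p: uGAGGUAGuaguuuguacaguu
let-7a-5p: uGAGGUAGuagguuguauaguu
let-7f-5p: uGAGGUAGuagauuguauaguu
miR-98-5p: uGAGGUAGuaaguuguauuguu
let-7j: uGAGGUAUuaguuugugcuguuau
Of the 11 mature names in the table, from 13 genomic copies, 10 share the seed of let-7g.

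The 6 libraries held 18438304 to 22647815 reads on genes, as recovered from the deposited FPKM values (reads per kilobase of gene length, scaled to the reads counted on genes in that library). The CD8 T cell identity genes, among them Cd3e, Cd8a, Cd8b1 and Trac, were expressed in every library and summed to 3410 to 3740 FPKM in WT beside 3830 to 4050 FPKM in let-7Tg CTLs. Of the defining markers of other cells, 14 of 16 myeloid genes and all 7 erythroid genes stayed under 1 FPKM in all 6 libraries, and Ms4a1 of B cells had no read. Other listed markers were expressed in both genotypes. Ighm was at 173 to 242 FPKM, Nkg7 at 312 to 511 FPKM, Eomes at 15.9 to 69.3 FPKM, Pecam1 at 12.7 to 33.5 FPKM, Zbtb7b at 12 to 27.7 FPKM and Kit at 0.744 to 9.76 FPKM. Replicate 1 of every day 5 genotype expressed Xist (429 FPKM in WT, 476 FPKM in let-7Tg) and almost no Y-linked RNA, while replicates 2 and 3 had the reverse, so same-numbered libraries shared the sex of the cells. Replicate 3 of WT stood apart from the other WT libraries in several genes. Its Ifitm1 was 127 FPKM against 396 and 513 FPKM. Replicate 3 of let-7Tg was likewise low for Ifitm1. A further fit therefore took the replicate number as a block. Its adjusted p-values are given below for some of the genes that were not called without it. Lin28b had no read in WT and at most 0.0245 FPKM in let-7Tg libraries, beside 19.4 ± 4.7 FPKM (SD, n = 3) in lin28Tg CTLs.

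A total of 123 genes were called at an adjusted p under 0.05 (limma on log2(FPKM + 0.5) over the 9 day 5 libraries), 0.944% of those tested. Of these, 77 rose in let-7Tg CTLs (0.591%) and 46 fell (0.353%). The let-7Tg and WT values of all 123 did not overlap, as was so for 2236 of the 13030 genes tested. Over all tested genes 6321 had a higher and 6709 a lower mean in let-7Tg CTLs, the background for the list counts below. The exact two-sided permutation test of 3 against 3 libraries cannot go below p = 0.1 for any gene, so calls rest on the spread that limma shares between genes. With the replicate block 518 genes were called (3.98%), 274 higher (2.1%) and 244 lower (1.87%), and the 123 were all among them. The count dropped to 6 when let-7Tg replicate 1 was left out, to 4 for let-7Tg replicate 2, to 3 for WT replicate 1 and to 4 for WT replicate 2. It was 124 when let-7Tg replicate 3 was left out and 303 for WT replicate 3. The calls of Col1a1, Eif4ebp1 and Gpt2 held in each of these 6 fits, and 5 of the 123 held in none. The fit of only the 6 libraries compared called 7 genes, and the 6 day 5 libraries low in Xist, 2 per genotype, called 0 (limma, 823 at an unadjusted p under 0.05).

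**Figure D1:**
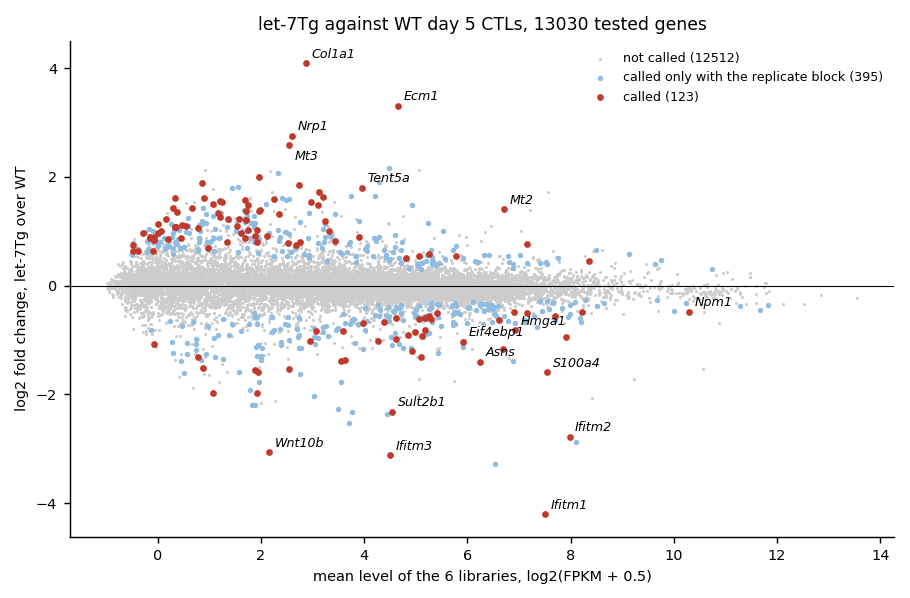
Mean level of the 6 libraries, log2(FPKM + 0.5), against the log2 fold change of let-7Tg over WT for the 13030 tested genes; red points are the 123 called genes, blue points those called only with the replicate block. Higher calls lie mostly at low levels on the left, lower calls mostly at higher levels.

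The genes that rose and those that fell sat at different levels. The median WT level was 1.07 FPKM for the 77 higher genes and 40.1 FPKM for the 46 lower genes, beside 13 FPKM for all tested genes. In let-7Tg CTLs the medians were 3.71, 19.6 and 13.5 FPKM. Of the higher genes 36 averaged under 1 FPKM in WT CTLs (46.8%, beside 14.6% of all tested genes). Of the lower genes 23 averaged 10 to 100 FPKM there (50%, beside 46.7%). A further 13 averaged 100 FPKM or more (28.3%, beside 9.07%). The WT level is 1 side of the change that chose the genes, so the difference in WT level is partly built in. The median change was 1.09 on the log2 scale among higher and -0.999 among lower genes. Since the pseudocount of 0.5 FPKM compresses changes of genes near or under it, the folds of the low genes are understated.

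The steepest fall was in the Ifitm genes on chromosome 7, which encode small interferon-inducible membrane proteins known for blocking virus entry. Ifitm1 (ENSMUSG00000025491, chr7:140967221-140969825, plus strand, GRCm38) was at 396, 513 and 127 FPKM in WT beside 23.4, 16.3 and 11.1 FPKM in let-7Tg CTLs. The highest let-7Tg library was thus far under the lowest WT library, and Ifitm1 fell by 4.20 on the log2 scale (SE 0.47, adjusted p = 0.0155). Ifitm2 was at 537, 633 and 158 FPKM in WT and 66.9, 83.4 and 32.3 FPKM in let-7Tg libraries, so that the groups were apart although WT replicate 3 was the lowest WT library (log2 fold change -2.78, SE 0.49, adjusted p = 0.0433). Ifitm3 went from 40.3 ± 20.7 to 4.03 ± 1.42 FPKM (SD, n = 3; -3.12, SE 0.49, adjusted p = 0.0352). Ifitm5, a bone-associated member at a low level, went from 2.89 ± 1.57 to 0.302 ± 0.124 FPKM (-1.98, SE 0.33, adjusted p = 0.0378). These genes share much of their sequence, and how reads that match several of them were counted is not given in the sources used here, so their separate levels are uncertain.

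The tested neighbours of the cluster within 100 kb did not pass the test without the block. Pgghg, whose start lies at -25.8 kb from that of Ifitm1, was at 15.6 ± 4.26 FPKM in WT beside 10 ± 0.501 FPKM in let-7Tg CTLs (-0.63, adjusted p = 0.139), and B4galnt4, at 93.9 kb on the other side, had a log2 fold change of -1.14 (adjusted p = 0.118). Psmd13, a proteasome subunit gene, averaged 147 FPKM in WT beside 144 FPKM in let-7Tg CTLs. Sirt3 averaged 30.6 FPKM in WT beside 19.9 FPKM in let-7Tg CTLs (-0.61, adjusted p = 0.287). In lin28Tg CTLs the means of Ifitm1, Ifitm2 and Ifitm3 were 1880, 1030 and 135 FPKM, above WT. The tested neighbours also had lin28Tg means above WT, with Psmd13 at 173 FPKM, Sirt3 at 30.9 FPKM, Pgghg at 20.3 FPKM and B4galnt4 at 23.5 FPKM. The order of the 3 genotypes was thus not particular to the Ifitm genes.

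**Figure D2:**
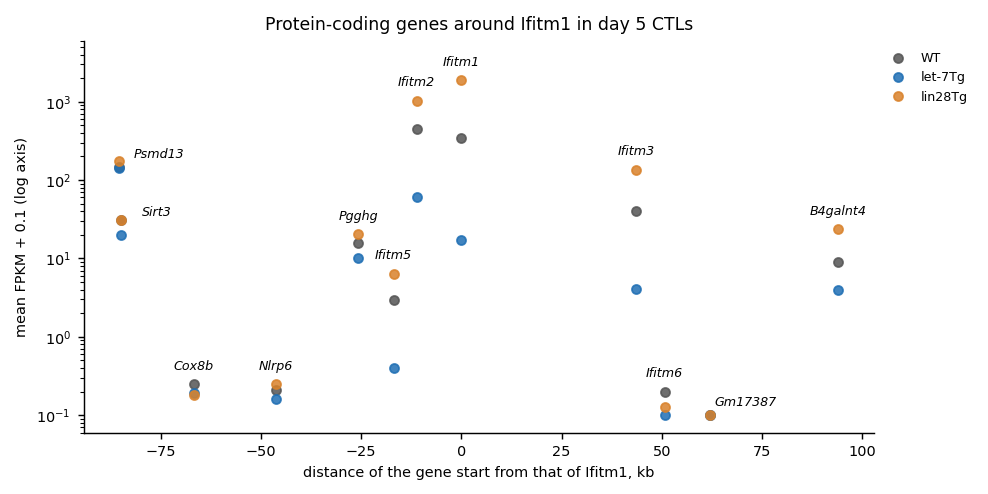
Mean FPKM + 0.1 on a log axis of protein-coding genes around Ifitm1, by the distance of their start from that of Ifitm1 in kb, for the 3 day 5 genotypes (n = 3 each). Ifitm5, Ifitm2, Ifitm1 and Ifitm3 are lowest in let-7Tg and highest in lin28Tg CTLs, with WT between them. The means of the tested neighbours Psmd13, Sirt3, Pgghg and B4galnt4 have the same order.

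The rest of the interferon response list gave no call. Of its 61 tested members 3 fell, all of them Ifitm genes, none rose, and 45 had a higher mean in let-7Tg CTLs (median log2 fold change 0.16, beside -0.006 for all tested genes). With the block 2 members also rose, the guanylate-binding protein gene Gbp2b, from 12.5 ± 0.709 to 24 ± 6.64 FPKM (block adjusted p = 0.0472), and Trim56 (block adjusted p = 0.0341). Ifi27l2a was at 68.1, 49.7 and 137 FPKM in WT and 221, 225 and 190 FPKM in let-7Tg libraries, which did not pass with or without the block (adjusted p = 0.0999 and 0.0537).

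The list of the ATF4 program, amino acid supply and tRNA synthetases held the largest called group among the lists. ATF4 is the transcription factor of the amino acid and integrated stress responses, and its known program covers amino acid synthesis enzymes, transporters and tRNA synthetases. Of the 52 tested genes of this list 10 fell and 1 rose, beside 0.353% and 0.591% of all tested genes. A lower mean in let-7Tg CTLs was seen for 49 of the 52, beside 6709 of all 13030 tested genes. The median log2 fold change was -0.48, beside -0.006. With the block 23 fell and 1 rose, beside 1.87% and 2.1% of all tested genes. The lists were written with earlier results of these data known, so the rank of this list and its counts are no separate evidence.

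Asparagine synthetase, Asns (ENSMUSG00000029752, chr6:7675169-7693254), was at 118, 117 and 89.5 FPKM in WT and 51.2, 41.9 and 33.8 FPKM in let-7Tg libraries. Each let-7Tg library was thus well under each WT library (log2 fold change -1.40, SE 0.16, adjusted p = 0.0155). Gpt2, the mitochondrial alanine transaminase (ENSMUSG00000031700, chr8:85492576-85527560), was at 15.7, 16 and 17 FPKM in WT and 7.24, 5.25 and 6.07 FPKM in let-7Tg libraries (-1.38, SE 0.13, adjusted p = 0.0063). Eif4ebp1, which encodes the 4E-BP1 repressor of cap-dependent translation (ENSMUSG00000031490, chr8:27260329-27276674), was at 89.3, 73.9 and 76.9 FPKM in WT and 44.1, 37.4 and 39 FPKM in let-7Tg libraries. It fell by 1.03 on the log2 scale (SE 0.09, adjusted p = 0.0063), and its replicates were close together in both genotypes.

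The other called members fell by less or were less abundant. The cationic amino acid transporter gene Slc7a3 went from 5.24 ± 1.61 to 1.42 ± 0.228 FPKM (-1.58, adjusted p = 0.0311), and Chac1, a glutathione-degrading enzyme gene of the same response, from 5 ± 0.78 to 1.41 ± 0.152 FPKM (-1.56, adjusted p = 0.0352). Nupr1, a small stress-induced nuclear protein gene, went from 1.93 ± 0.521 to 0.481 ± 0.137 FPKM (-1.32, adjusted p = 0.0352), and Ddit3, which encodes the stress factor CHOP, from 18.6 ± 1.31 to 11.7 ± 0.892 FPKM (-0.69, adjusted p = 0.0352). The tRNA synthetase genes Cars and Sars, for cysteine and serine, fell with log2 fold changes of -0.63 and -0.50 (adjusted p = 0.0288 and 0.0257). Gcat, of threonine and glycine metabolism, fell as well. Qars, the glutamine tRNA synthetase gene, which is not in the list and is not counted in it, fell by 0.49 on the log2 scale (adjusted p = 0.0352). Ass1, which makes the precursor of arginine, was the member that rose, from 108, 84.3 and 119 FPKM to 194, 186 and 163 FPKM (0.76, SE 0.13, adjusted p = 0.04).

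Atf4 itself was at 158, 168 and 219 FPKM in WT and 106, 120 and 159 FPKM in let-7Tg libraries. The groups overlapped by 1 pair of libraries, but each let-7Tg library was under the WT library of its number (-0.56, adjusted p = 0.265, and 0.0149 with the block). The pseudokinase gene Trib3, an ATF4 target, was called only with the block as well (-1.15, adjusted p = 0.0513 and 0.0174), as were Psat1 and Shmt2 of serine and glycine synthesis (block adjusted p = 0.0205 and 0.0317), the transporter gene Slc6a9 (0.0205) and the tRNA synthetase genes Gars (0.0185), Iars (0.0317) and Yars (0.0494). Phgdh, the first enzyme of serine synthesis, had a log2 fold change of -0.35 and passed neither fit (adjusted p = 0.407 and 0.0662). The valine tRNA synthetase gene Vars averaged 430 ± 50 FPKM in WT beside 417 ± 15.5 FPKM in let-7Tg CTLs (adjusted p = 0.82).

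ATF4 with a C/EBP partner is known to bind elements of the form TGATGNAA. Letters of that form were found on either strand for 4.51% of the 27025 genes with a RefSeq promoter window (250 bases before to 50 after the gene start). A gene with several windows was counted if any of them held the letters. Of all tested genes 74.7% had such a window, and 2.81% of these held the element. Of the 52 tested list members 37 had a window (71.2%), and 14 of the 37 held it (37.8%). Of the 10 called lower genes of the list 7 had a window and 3 of these held the element, Asns, Chac1 and Nupr1. Since fewer than 80% of the members had a window, the shares stand as descriptions and no comparison is drawn. The elements of these genes and of Trib3 are shown, with the element in capitals and each sequence written on the strand on which it reads TGATGNAA.
Asns, chr6:7693214-7693243: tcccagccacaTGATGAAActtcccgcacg
Chac1, chr2:119351038-119351067: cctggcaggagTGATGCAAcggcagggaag
Nupr1, chr7:126625562-126625591: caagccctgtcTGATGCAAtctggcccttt
Trib3, chr2:152344028-152344057: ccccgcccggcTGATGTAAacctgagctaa
A match of letters is a description of the window and not a bound site.

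**Figure D3:**
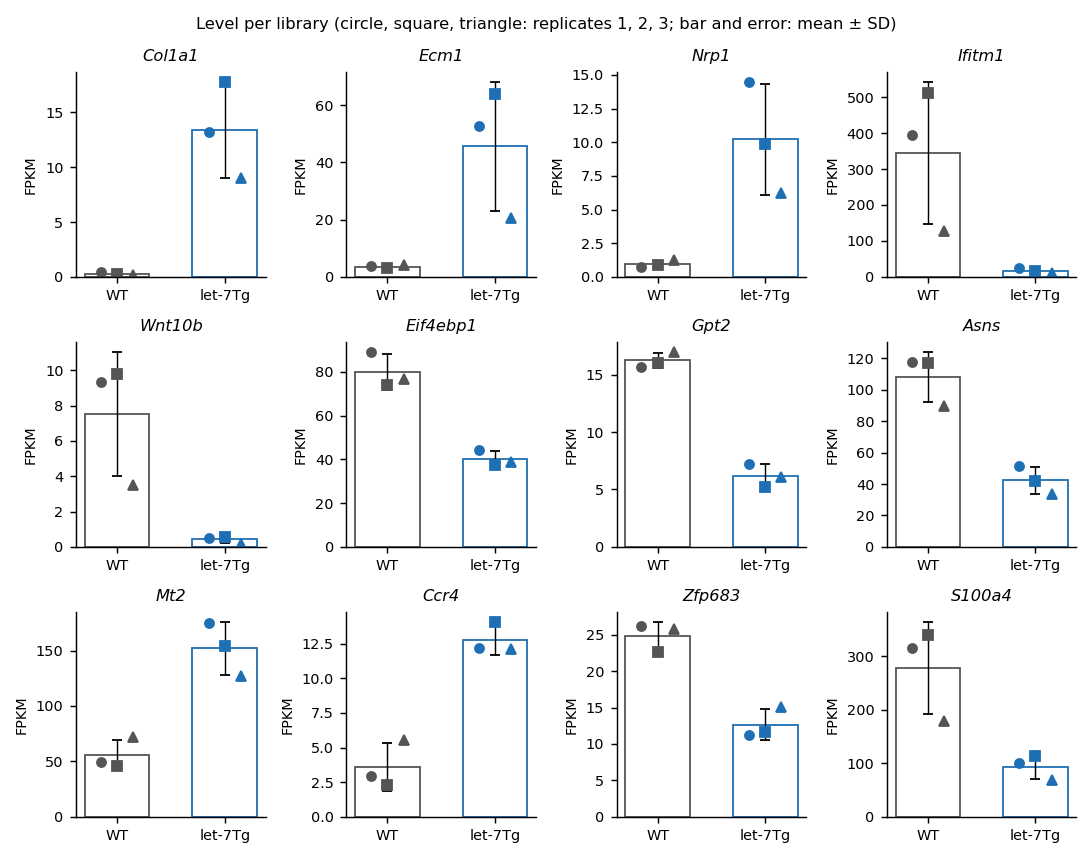
FPKM per library of 12 called genes, WT in gray and let-7Tg in blue, with circles, squares and triangles for replicates 1, 2 and 3 and bars for the mean ± SD. In each panel the 3 let-7Tg libraries are apart from the 3 WT libraries.

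Transcripts with let-7 sites were examined next. Of 31 tested textbook targets of let-7 the chromatin protein gene Hmga1 fell and none rose, while 24 had a lower mean and the median log2 fold change was -0.16. Hmga1 was at 168, 148 and 139 FPKM in WT and 88.7, 77 and 102 FPKM in let-7Tg libraries (-0.82, SE 0.12, adjusted p = 0.0311). With the block 4 of the 31 fell, the further ones being Igf2bp2, an RNA-binding protein gene, from 3.66 ± 0.374 to 2.11 ± 0.0974 FPKM (block adjusted p = 0.0382), Arid3a (0.0317) and Eomes (0.0149). Cdc34, a ubiquitin-conjugating enzyme gene and known target, went from 75.3 ± 7.64 to 54 ± 10.9 FPKM and passed neither fit (adjusted p = 0.232 and 0.0784). Among 15 targets that the study lists for day 5, 4 fell, Hmga1, Atp8b4, Pla2g15 and Nupr1, and all 15 had a lower mean (median -0.74), but the study picked these targets from the same libraries, so their direction is no separate evidence. Atp8b4, a phospholipid flippase gene, was at 147, 158 and 115 FPKM in WT and 68.3, 63.1 and 60.2 FPKM in let-7Tg libraries (-1.16, SE 0.11, adjusted p = 0.00749). Of the 22 listed for other stages only, none was called, and 1, the desaturase gene Scd2, fell with the block (-0.52, adjusted p = 0.058 and 0.0178). Of the 20 tested genes of let-7 processing and silencing none was called, and with the block Dgcr8, the Drosha partner, rose from 33.4 ± 5.09 to 45.5 ± 1.7 FPKM (0.40, adjusted p = 0.206 and 0.0457).

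Sites were counted in the longest annotated 3′UTR of each gene (GENCODE M21) as the form CTACCTCA or either shorter form that lacks only its last or only its first letter, all read on the mRNA strand, with overlapping forms counted once. Of 11649 tested genes with a 3′UTR 2205 held a site (18.9%). The share was 7 of 46 among the called lower genes (15.2%) and 7 of 72 among the called higher genes (9.72%), and 24.9% and 14.1% among the genes called lower and higher with the block. Genes with at least 1 site had a lower mean in let-7Tg CTLs in 57% of cases and a median log2 fold change of -0.03, against 50.6% and 0.00 for genes without a site, and those with 2 or more sites in 63.5% with a median of -0.05. Their 3′UTRs were longer, with a median of 3555 bases for 2 or more sites and 1114 bases for none, and the part of length in these shares was not tested. The sites of 6 called lower genes are shown in their surroundings, with the letters that pair with the seed, and the terminal A where present, in capitals.
Hmga1, chr17:27563276-27563303: ctcctctgttcacaaaCTACCTCtggac
Atp8b4, chr2:126321671-126321698: agtcaggacgcactacCTACCTCccgtg
Pla2g15, chr8:106163941-106163968: tctttacagtctgctcCTACCTCtcatt
Pik3ap1, chr19:41273317-41273344: tagaaatagagagccaTACCTCActgtc
Scd1, chr19:44396351-44396378: ggcttccagatcctccCTACCTCcaact
Qars, chr9:108515848-108515876: ctgaatacatgtggccCTACCTCAtcctg
Nupr1 held the seventh. Qars was the called lower gene with the full form, and among the called higher genes Fsd1l, Gcnt4 and Raver2 held it.

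**Figure D4:**
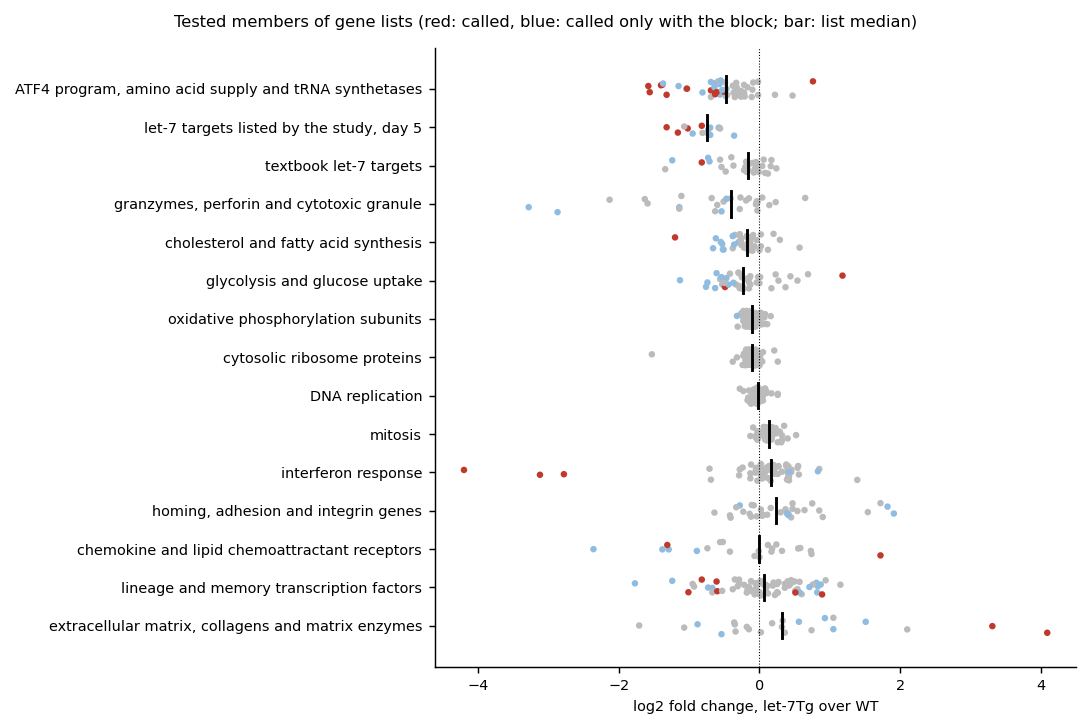
Log2 fold change of let-7Tg over WT for the tested members of 15 gene lists, with red points for called genes, blue points for genes called only with the block, black bars for list medians and a dotted line for the median of all tested genes. The list of the ATF4 program and amino acid supply lies mostly to the left of the line, with a median of -0.48. The 3 interferon list members far to the left are Ifitm1, Ifitm3 and Ifitm2.

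Wnt10b, a secreted Wnt ligand, fell as steeply as Ifitm3. It was at 9.33, 9.81 and 3.49 FPKM in WT and 0.508, 0.555 and 0.185 FPKM in let-7Tg libraries, where the lowest WT library was still over 6 times the highest let-7Tg library (log2 fold change -3.06, SE 0.38, adjusted p = 0.0233). Of the 25 tested Wnt pathway genes it was the only call, and their median log2 fold change was -0.03. Outside that list the Wnt-related receptor genes Ryk and Fzd6 rose, Ryk from 5.96 ± 0.57 to 13 ± 2.17 FPKM (adjusted p = 0.0452), as did the factor gene Tcf7l1, from 0.189 ± 0.0944 to 0.91 ± 0.121 FPKM (adjusted p = 0.0311). Ryk, Fzd6 and Tcf7l1 were picked from the called genes after their values were seen, so they show no pattern of the pathway.

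The largest rises were in Col1a1, at the transgene's own locus, and in Ecm1, a secreted matrix protein gene. Ecm1 (ENSMUSG00000028108, chr3:95734147-95739569) was at 3.73, 2.94 and 4.08 FPKM in WT and 52.6, 64 and 20.5 FPKM in let-7Tg libraries (log2 fold change 3.31, SE 0.35, adjusted p = 0.0137). Col1a1, the collagen gene in whose locus the let-7 transgene sits by the study's account (ENSMUSG00000001506, chr11:94936224-94953042), was at 0.449, 0.238 and 0.122 FPKM in WT and 13.2, 17.8 and 9.06 FPKM in let-7Tg libraries (4.09, SE 0.35, adjusted p = 0.0063). It is therefore named apart from the other matrix genes. Of the 23 tested genes of the matrix list Ecm1 was the only call besides Col1a1, and the median log2 fold change was 0.32. With the block 2 fell and 6 rose, the risen genes including the laminin genes Lama5, from 15.4 ± 3.94 to 31.9 ± 11.4 FPKM (block adjusted p = 0.0187), and Lamc1 (0.0271), and the inhibitor gene Timp2 (0.0235). The stromal and endothelial marker genes summed to 12.9 to 18.9 FPKM in WT and 20.2 to 34.9 FPKM in let-7Tg libraries, nearly all of it Pecam1, and 9 of 10 were under 1 FPKM in all 6 libraries. Col1a2 was at 0 to 0.118 FPKM in WT and 0.275 to 0.523 FPKM in let-7Tg libraries, while Pdgfra and Lum had no read. The part of such cells in these results was not tested.

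Within 10 Mb of Col1a1 6 of 257 tested genes were called, beside 0.916% elsewhere. They were Col1a1, Gpr179, Krt10, Rapgefl1 and Rundc3a, which rose, and Vat1, which fell. Within 2 Mb Col1a1 was the only call among 51 tested genes. Around Gt(ROSA)26Sor on chromosome 6, where doxycycline-dependent activators are often placed, Cacna2d4 was the 1 call among 99 tested genes within 10 Mb and none of 30 was called within 2 Mb.

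Called genes lay within 100 kb of each other at 3 places, the Ifitm cluster, the metallothionein genes and a pair of Tmem176 genes. Mt2, which encodes a zinc- and copper-binding metallothionein, was at 49.6, 45.9 and 71.6 FPKM in WT and 175, 154 and 127 FPKM in let-7Tg libraries (log2 fold change 1.41, SE 0.21, adjusted p = 0.0311). Mt3, its neighbour, rose from 0.929 ± 0.0552 to 9.7 ± 6.05 FPKM (2.58, SE 0.47, adjusted p = 0.0454), with let-7Tg replicate 3 the lowest of its group at 3.67 FPKM. Mt1, the most abundant of the family here, had means of 155 and 247 FPKM and passed neither fit (adjusted p = 0.125 and 0.0634). Tmem176a and Tmem176b, overlapping genes of an ion channel-like pair, rose from 3.73 ± 0.342 to 13.6 ± 5.13 FPKM and from 3.25 ± 0.373 to 11.3 ± 4.66 FPKM (adjusted p = 0.0288 and 0.0352). Whether the counting used strand is not given in the sources used here, so reads of overlapping genes cannot be told apart.

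Among 75 tested transcription factors of T cell lineages 2 rose and 4 fell. Zfp683, which encodes Hobit, a factor of tissue-resident and effector lymphocytes, was at 26.2, 22.7 and 25.8 FPKM in WT and 11.2, 11.6 and 15.1 FPKM in let-7Tg libraries (log2 fold change -1.01, SE 0.17, adjusted p = 0.0386). Hopx, a homeobox cofactor of effector cells, fell from 42.4 ± 3.34 to 28.8 ± 2.36 FPKM (adjusted p = 0.0352), and Jarid2, a Polycomb cofactor, from 46.2 ± 4.18 to 31.3 ± 4.29 FPKM (adjusted p = 0.0386). Hmga1 was the other. The zinc finger gene Zbtb20 was at 9.45, 8.51 and 11.4 FPKM in WT and 20.2, 18.7 and 18.5 FPKM in let-7Tg libraries (0.89, SE 0.17, adjusted p = 0.0481), and Nfic rose from 22.1 ± 2.06 to 32.8 ± 0.541 FPKM (adjusted p = 0.048).

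With the block 8 of the 75 rose and 8 fell. Eomes, the T-box factor, was at 50.1, 53.3 and 69.3 FPKM in WT and 15.9, 20.9 and 44.6 FPKM in let-7Tg libraries (-1.24, adjusted p = 0.202, and 0.0149 with the block), where replicate 3 was the highest of each genotype. The Helios gene Ikzf2 went from 18.3 ± 12 to 4.22 ± 1.65 FPKM (block adjusted p = 0.0277) and Id2, an inhibitor of E proteins, from 169 ± 66.3 to 106 ± 30.8 FPKM (0.0412). In the other direction Id3 went from 19.2 ± 9.31 to 33.2 ± 6.47 FPKM (0.0362), Lef1, a partner of β-catenin, from 62.7 ± 9.69 to 95.9 ± 5.85 FPKM (0.0302), and Klf3 from 7.38 ± 3.41 to 13.4 ± 3.79 FPKM (0.0402). None of these passed without the block. Ets1, the most abundant member that passed neither fit, averaged 268 ± 4.09 FPKM in WT beside 381 ± 24.4 FPKM in let-7Tg CTLs (adjusted p = 0.13 and 0.0552).

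Among the 22 tested chemoattractant receptors Ccr4 rose and P2ry14 fell. Ccr4, a skin-homing and type 2 chemokine receptor, was at 2.95, 2.32 and 5.57 FPKM in WT and 12.2, 14.1 and 12.1 FPKM in let-7Tg libraries (log2 fold change 1.72, SE 0.30, adjusted p = 0.04). P2ry14, a receptor for UDP-sugars, went from 47.6 ± 2.7 to 20.2 ± 6.87 FPKM (-1.31, SE 0.24, adjusted p = 0.048). Ccr2 (-2.36), Cxcr6 (-0.89) and Gpr183 (-1.29) fell with the block only (block adjusted p = 0.0256, 0.0235 and 0.0412). Ccr7, the lymph node homing receptor, averaged 36.5 ± 13.8 FPKM in WT beside 53.6 ± 12.1 FPKM in let-7Tg CTLs and passed neither fit (adjusted p = 0.526 and 0.278).

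None of the 34 tested homing and adhesion genes was called, although their median log2 fold change was 0.23, and with the block 4 rose and 1 fell. The tetraspanin gene Cd81 was at 9.74, 5.28 and 6.75 FPKM in WT and 40.3, 35.7 and 16.7 FPKM in let-7Tg libraries (1.91, adjusted p = 0.0931 and 0.0279), and Ly6e went from 671 ± 33.5 to 910 ± 60 FPKM (block adjusted p = 0.0494). The integrin gene Itgal fell with the block, from 200 ± 7.09 to 170 ± 9.92 FPKM (0.0398). Nrp1, a semaphorin and VEGF co-receptor that was in no list, was at 0.759, 0.88 and 1.23 FPKM in WT and 14.5, 9.89 and 6.23 FPKM in let-7Tg libraries (2.76, SE 0.41, adjusted p = 0.0311).

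Of 20 costimulatory and death receptors Cd80 rose and Tnfrsf9 fell. Tnfrsf9, which encodes 4-1BB, was at 373, 331 and 243 FPKM in WT and 172, 177 and 150 FPKM in let-7Tg libraries (-0.95, SE 0.17, adjusted p = 0.0454). Cd80, a ligand of CD28 and CTLA-4, rose from 3.9 ± 0.89 to 12.3 ± 2.78 FPKM (1.49, SE 0.25, adjusted p = 0.0378). The OX40 gene Tnfrsf4 (29.4 ± 6.14 against 61.9 ± 11.4 FPKM) and Icos (48 ± 5.84 against 71.8 ± 14.9 FPKM) rose with the block only (block adjusted p = 0.0235 and 0.0187). Of the 24 inhibitory receptors and ectoenzymes none was called. With the block Havcr2, which encodes Tim-3, fell from 5.46 ± 3.65 to 0.641 ± 0.278 FPKM (-2.20, adjusted p = 0.0772 and 0.0169), as did Cd244a (0.0283) and Cd160 (0.0454), and Cd200 rose (0.0341). Among 23 SLAM and NK lectin receptors Slamf7 fell, from 44.2 ± 8.85 to 23.9 ± 4.29 FPKM (-0.92, adjusted p = 0.0379), and with the block also Klrb1c, which encodes NK1.1, from 22.1 ± 16.7 to 3 ± 1.34 FPKM, and the NKG2D gene Klrk1 (block adjusted p = 0.0439 and 0.0164). Klrb1c, Nkg7 and Eomes belong to the list of NK cell markers. That list summed to 468 to 605 FPKM in WT beside 330 to 419 FPKM in let-7Tg CTLs. Most of each sum was Nkg7, which is also in the list of cytotoxic granule genes and whose WT and let-7Tg values overlapped slightly. The sums are thus mainly the level of 1 gene and not of a marker set. The NK-defining gene Ncr1 was at 0 in WT and at most 0.0896 FPKM in let-7Tg libraries. In bulk RNA fewer cells of a kind and less RNA per cell cannot be told apart.

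None of 29 tested genes of cytotoxic granules was called, while 25 had a lower mean in let-7Tg CTLs (median log2 fold change -0.41). Gzmb, the main granzyme here, was at 2310, 2360 and 2140 FPKM in WT and 1270, 1700 and 1450 FPKM in let-7Tg libraries, which did not overlap but passed neither fit (-0.68, adjusted p = 0.197 and 0.0516). Gzma was at 613, 752 and 80.5 FPKM in WT and 78.2, 109 and 11.8 FPKM in let-7Tg libraries, so that WT replicate 3 lay within the let-7Tg range (-2.87, adjusted p = 0.218, and 0.0332 with the block). With the block Gzmc (-3.28, 0.0341), the granzyme B inhibitor gene Serpinb9 (-1.14, 0.039) and the granule docking genes Rab27a (-0.47, 0.0239) and Sytl2 (-0.54, 0.0362) fell too. Srgn, the granule proteoglycan, averaged 295 ± 14.2 FPKM in WT beside 488 ± 102 FPKM in let-7Tg CTLs (adjusted p = 0.169 and 0.0665). Of 21 effector cytokines and death ligands Wnt10b, listed there as a secreted ligand, was the only call, and with the block Lif, from 5.51 ± 0.841 to 20.3 ± 9.13 FPKM (0.0257), and Il4, from 0.441 ± 0.195 to 2.25 ± 1.22 FPKM (0.0336), rose and Il10 (0.017) and Ebi3 (0.0235) fell. None of 28 cytokine receptors was called. Il7r, the IL-7 receptor α chain, was at 24.9, 21.3 and 17 FPKM in WT and 70.7, 65.8 and 24.7 FPKM in let-7Tg libraries (1.16, adjusted p = 0.321, and 0.0344 with the block), with let-7Tg replicate 3 at the level of WT.

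Metabolic genes gave few calls. Scd1, the stearoyl-CoA desaturase gene, was at 43.8, 43.2 and 36.3 FPKM in WT and 21.9, 16.9 and 16.2 FPKM in let-7Tg libraries (log2 fold change -1.20, SE 0.16, adjusted p = 0.0257) and was the only call among 42 tested genes of cholesterol and fatty acid synthesis. With the block 10 of these 42 fell and none rose, among them Hmgcs1, at the entry to the sterol pathway (-0.62, 0.0149), Msmo1 (-0.66, 0.0089) and Mvd (-0.53, 0.0235), and 36 had a lower mean without regard to a call (median -0.18). Of 43 genes of glycolysis and glucose uptake Pgam1 fell, from 343 ± 36.6 to 252 ± 16.8 FPKM (adjusted p = 0.048), and Ldhb, the heart-type lactate dehydrogenase subunit, rose from 5.21 ± 1.03 to 12.8 ± 2.5 FPKM (1.18, SE 0.19, adjusted p = 0.0352). With the block 10 fell, including the abundant enzymes Pgk1 (-0.47, 0.0196), Eno1 (-0.44, 0.0412) and Ldha (-0.37, 0.031) and the glucose transporter Slc2a3 (-0.76, 0.0439). Of 77 oxidative phosphorylation subunits 0 were called and 67 had a lower mean (median -0.11), and of 77 cytosolic ribosomal proteins 0 were called with or without the block and 71 had a lower mean (median -0.11). Without scaling between libraries the median of all tested genes moves from -0.006 to 0.039. Npm1, nucleolar nucleophosmin, fell from 1440 ± 48 to 1070 ± 78.8 FPKM (-0.48, adjusted p = 0.0397), the only call among 50 genes of ribosome biogenesis and Myc.

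Genes of the cell cycle were not called in either direction. The 46 DNA replication genes had a median log2 fold change of -0.02 and the 47 mitosis genes of 0.14, of which 38 had a higher mean in let-7Tg CTLs. Top2a averaged 734 ± 92.1 FPKM in WT beside 945 ± 88.4 FPKM in let-7Tg CTLs (0.32, adjusted p = 0.253 and 0.118). With the block the 33 G1 genes included 3 that rose, the CDK inhibitor gene Cdkn2c (0.66, 0.0207), E2f7 (0.65, 0.0149) and Mxd3 (0.72, 0.0341). Tubb4b, a β-tubulin gene outside these lists, rose from 271 ± 9.96 to 386 ± 25.5 FPKM (0.46, adjusted p = 0.0359).

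Signaling genes gave few calls. Of 47 tested genes of the T cell receptor complex and its proximal signaling none was called, and with the block Ptpn6, the SHP-1 phosphatase, rose from 174 ± 28.1 to 254 ± 22.1 FPKM (0.0292), while Ubash3b, which encodes the phosphatase Sts-1, fell from 63.5 ± 3.41 to 41.2 ± 5.11 FPKM (0.0145), as did Plcg2 and Clnk. Eif4ebp1 was the only call among 46 PI3K, Akt and mTOR genes. Pik3ap1, the adaptor BCAP, which was outside that list, fell from 31.6 ± 6.91 to 16.3 ± 3.65 FPKM (-0.99, SE 0.18, adjusted p = 0.0467). None of 23 JAK, STAT and SOCS genes was called, and with the block the survival kinase gene Pim2 fell from 351 ± 18.5 to 234 ± 58.3 FPKM (0.0312). None of 28 genes of the BCL2 family and apoptosis was called, and with the block Bcl2 rose from 119 ± 14.9 to 163 ± 6.44 FPKM (0.41, 0.0308) and Bmf fell from 6.68 ± 2.86 to 2.81 ± 0.936 FPKM (0.0362). Of 35 galectin, S100, annexin and cytoskeleton genes S100a4, a calcium-binding protein gene of effector and memory T cells, was at 316, 340 and 179 FPKM in WT and 101, 113 and 68.1 FPKM in let-7Tg libraries (-1.59, SE 0.29, adjusted p = 0.0451), and the cytolinker gene Dst rose at a low level (adjusted p = 0.0378).

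Further higher genes belonged to no list and sat at low levels, with 34 of the 77 at 1 to 10 FPKM in WT CTLs beside the 36 under 1 FPKM. Kif5c, Uchl1, Crmp1 and Gja1 were chosen after their values were seen. The axon transport motor gene Kif5c rose from 1.03 ± 0.296 to 3.13 ± 0.492 FPKM (adjusted p = 0.0311), the ubiquitin hydrolase gene Uchl1 from 1.74 ± 0.358 to 6.82 ± 2.66 FPKM (0.0384), Crmp1, a semaphorin signaling gene, from 2.26 ± 0.256 to 6.92 ± 2.63 FPKM (0.0396), and the gap junction gene Gja1 from 0.0745 ± 0.0354 to 1.44 ± 0.797 FPKM (0.0441). The linker histone gene H1fx was at 0.175, 0.305 and 0.223 FPKM in WT and 1.72, 3.56 and 1.91 FPKM in let-7Tg libraries (1.89, SE 0.23, adjusted p = 0.0218). Fsd1l was at 0.594, 0.869 and 1.74 FPKM in WT and 4.84, 5.83 and 6.42 FPKM in let-7Tg libraries (1.99, SE 0.28, adjusted p = 0.0288). Tent5a, a cytoplasmic poly(A) polymerase gene, rose from a higher level, at 6.13, 5.44 and 7.11 FPKM in WT and 26.1, 26.8 and 18.9 FPKM in let-7Tg libraries (1.80, SE 0.24, adjusted p = 0.0257). Sdc3, a heparan sulfate proteoglycan gene, rose from 2.47 ± 1.28 to 9.94 ± 1.39 FPKM (1.86, adjusted p = 0.0352). The called features also held 2 antisense genes, Tspan32os and Gm28809, and the pseudogene Rps19-ps3, whose reads may belong to the genes that they overlap or copy.

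In lin28Tg CTLs, where let-7 is inhibited, the means of several of these genes lay on the far side of WT. The lin28Tg mean was 1.14 ± 0.213 FPKM for Sdc3, 2.56 ± 0.946 FPKM for Tent5a, 164 ± 23.9 FPKM for Asns, 22.1 ± 7.54 FPKM for Wnt10b, 652 ± 124 FPKM for Tnfrsf9 and 4.2 ± 0.883 FPKM for Zbtb20. For others it lay near WT. It was 59.9 ± 11.5 FPKM for Mt2, 3.38 ± 0.312 FPKM for Ecm1, 3.33 ± 1.11 FPKM for Cd80 and 0.69 ± 0.617 FPKM for Nrp1. Both comparisons share the WT libraries, so these are values side by side.

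The same genotypes were also sequenced as naive cells and after 12 h of activation, and the day 5 genes were followed there. Of the 123 genes 102 were tested in naive cells, where 4 were called, all with the sign of day 5 (Cnih1, Col1a1, Pgam1 and Riox2, beside 0.813% of all genes tested at that stage). The sign was that of day 5 for 77 of the 102. How often the signs match over all tested genes was not computed, so no background stands beside this count. At 12 h 102 were tested and 9 were called with the sign of day 5, Col1a1, Dstyk, Enc1, Ifitm2, Ifitm3, Pik3ap1, Qars, Rapgefl1 and Wnt10b, beside 3.27% of all tested genes. The change was smaller than at day 5 for 100 of 102 genes in naive cells and for 96 of 102 at 12 h, which is partly built in, since the genes were chosen for their change at day 5. Ifitm1 averaged 0.731 ± 0.273 FPKM in naive and 1.73 ± 1.31 FPKM in 12 h WT cells, and Asns 0.0239 ± 0.0415 and 7.06 ± 1.76 FPKM, against 345 FPKM and 108 FPKM at day 5. Ecm1 was higher in let-7Tg cells by 0.56 in naive cells and 0.42 at 12 h on the log2 scale, neither of which was called, and with the replicate block the naive change was called (adjusted p = 0.034).

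A test of the difference itself, with stage and genotype in 1 model, called 37 of the 123 genes between day 5 and naive cells (0.484% of all 14453 tested genes were called) and 42 between day 5 and 12 h (1.41%). The day 5 libraries that chose the 123 genes also enter this test, so the higher share among them is partly built in. All 123 entered this model, although within naive cells and within 12 h cells only 102 had enough reads to be tested. A gene with few reads at the other stage can show little change there. In each of the 37 and 42 genes the difference had the sign of the day 5 change. Among them were genes with an estimated change of the other sign at the other stage, such as Gcnt4 in naive cells and Tg and Jarid2 at 12 h. The difference was 2.77 (SE 0.42, adjusted p = 0.00213) for Ecm1 and -2.91 (SE 0.44, adjusted p = 0.00213) for Wnt10b against naive cells, and 1.89 (SE 0.24, adjusted p = 0.0014) for H1fx against 12 h.

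**Figure D5:**
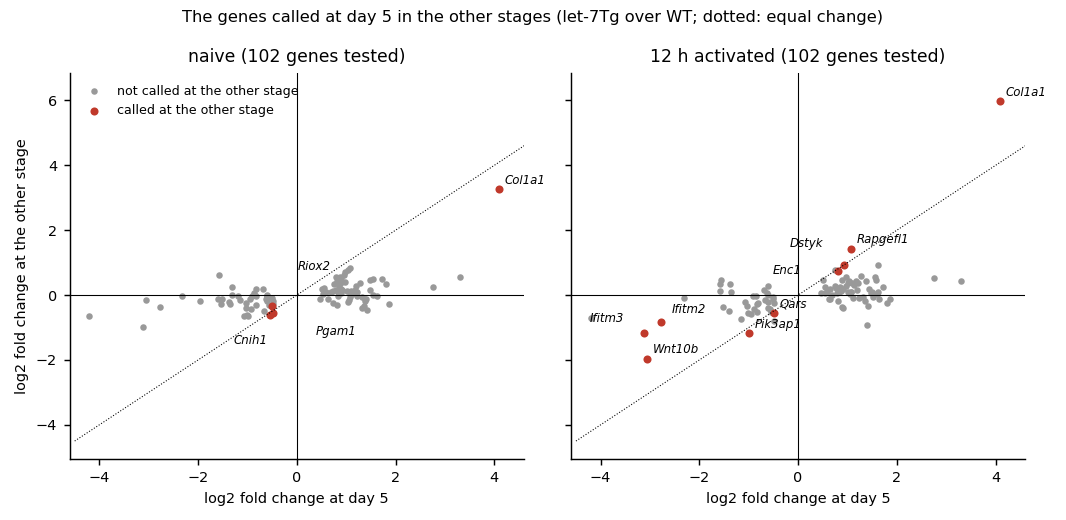
Log2 fold change of let-7Tg over WT at day 5 (horizontal axis) against that in naive cells (left) and at 12 h of activation (right) for the day 5 genes tested at both stages, with red points for genes called at the other stage and a dotted line for equal change. Most points lie nearer 0 on the vertical axis, and Col1a1 is called at all 3 stages.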

How the data were processed

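RNA of P14 CD8 T cells was sequenced by the study from 3 genotypes at 3 stages with 3 libraries each, and the 6 let-7Tg and WT libraries of day 5 are compared here. Per the study's methods and the submitters' processing notes, the authors aligned paired reads with TopHat2 (2.0.9) and Bowtie2 (2.0.6) to the mouse genome (GRCm38, mm10), counted them per gene with HTSeq (0.6.1) and deposited FPKM values per library. The annotation release and the strand setting are not given in the sources used here. The tables also hold the authors' mean read counts, fold changes, p-values, ranks and heatmap clusters, which were not used, and 0 columns of single libraries were without a sample.

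FPKM values keep whole reads, and all 462839 values above 0 came out as whole multiples of what 1 read is worth, which gave 13862679 to 23590836 reads per library. The low reads behind a gene limit its precision, and no count model was run because the deposited unit is FPKM. Genes were tested that had 10 reads at median depth in at least 3 of the 9 day 5 libraries and 15 reads over all. FPKM was scaled between libraries by trimmed mean of log ratios (30% of log ratios and 5% of mean levels trimmed), turned to log2(FPKM + 0.5) and fitted with limma (3.58.1, R 4.3.3) with an empirical Bayes trend on all 9 libraries, which share 1 estimate of the spread. p-values were adjusted by Benjamini-Hochberg over all 13030 genes, and a gene was called at 0.05. Fold changes are on the log2(FPKM + 0.5) scale. The script was tested on simulated data.

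The labels number the replicates in each genotype. The deviations of same-numbered let-7Tg and WT libraries from their group means correlated at 0.562, 0.532 and 0.715, against -0.534 to 0.144 for other pairs. Deviations from a group mean cancel within the group, so positive values for same-numbered pairs push those of other pairs down. The contrast between them is thus partly built in. Same-numbered libraries also shared the sex read from Xist. The numbers were taken to pair the libraries, and the replicate number was fitted as a block. The reported calls are without it, since the study's methods name none.

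The genes open to naming by rule were Col1a1 and Lin28b, in each direction the 15 calls of lowest adjusted p without overlap and the 10 of largest change, the called members of each list with its 4 most abundant uncalled members, and for the stages the 5 with the smallest adjusted p. The text names only some of these. Genes called only with the block, neighbours of Ifitm1, Mt1, Tubb4b, and the other called genes were named after their values were seen. The lists and the comparison were chosen with earlier results of these data known. Gene coordinates and 3′UTRs are from GENCODE M21 (GRCm38), which held 34490 of 35275 gene IDs, and miRNA and promoter sequences from RefSeq (GRCm38.p6). Alternatives covered scaling, pseudocount (0.1 and 1 FPKM), filters, variance models, the libraries in the fit, the block, leaving out each library, and, added after seeing the data, the 6 libraries with the block, a term for libraries with high Xist, and only the 6 libraries with low Xist.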

Additional observations from a re-analysis of the deposited data

Results flagged for a closer look

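These results were picked out because the let-7Tg effect at day 5 differed from that at another stage in a test of the difference itself (limma, stage and genotype in 1 model). The effect of 37 of the 123 day 5 genes differed from that in naive cells and of 42 from that at 12 h. In all of them the difference had the sign of the day 5 change. The 123 genes were chosen for their change at day 5, which favours larger values there. With the block within stages the counts were 36 and 48.

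Against naive cells the log2 fold change at day 5 was larger by 1.99 for Fsd1l (SE 0.27, adjusted p = 0.000773), by 1.89 for the linker histone gene H1fx (SE 0.24, adjusted p = 0.000773), by 2.77 for Ecm1 (SE 0.42, adjusted p = 0.00213) and by 1.69 for Gcnt4, a glycosyltransferase gene (SE 0.28, adjusted p = 0.00526). For Wnt10b the difference was -2.91 (SE 0.44, adjusted p = 0.00213). The difference for Gcnt4 exceeded its day 5 change of 1.36, so its estimated change in naive cells had the other sign.

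Against 12 h it was 1.89 for H1fx (SE 0.24, adjusted p = 0.0014), 2.89 for Ecm1 (SE 0.42, adjusted p = 0.0023), 2.30 for Tg, which encodes thyroglobulin (SE 0.34, adjusted p = 0.0023), and 1.94 for Fsd1l (SE 0.27, adjusted p = 0.0023). For Jarid2 it was -0.89 (SE 0.14, adjusted p = 0.00276). The differences for Tg and Jarid2 exceeded in size their day 5 changes of 1.39 and -0.61, so their estimated changes at 12 h had the other sign. The cause of these differences was not tested.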

How the results depend on the processing

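The 123 called genes, of which 36 were in the lists, kept their sign in every alternative run in which they were tested. Their let-7Tg and WT values did not overlap and every run reused these libraries, so the kept sign is no separate evidence. The number of calls varied. It was 57 (13 in the lists) with no filter on low values, 44 (20) for genes that averaged at least 1 FPKM, 2234 (370) with library weights, 518 (145) with the replicate block, 7 (5) with only the 6 libraries compared, and 1355 (314) for those 6 with the block, a fit chosen after seeing the data. Leaving out 1 library gave 3 to 303 calls (3 to 84 in the lists), the lowest without WT replicate 1 and the highest without WT replicate 3. With only the 6 libraries of low Xist, also chosen after seeing the data, 0 were called by limma (0 in the lists) and 823 had an unadjusted p under 0.05. There the log2 fold change of Vars was 0.01 in place of a value under 0. With other scalings (145 without scaling, 123 by median of ratios), pseudocounts (86 with 0.1 FPKM and 142 with 1 FPKM), robust variance (116), precision weights (109) and the Xist term (118) the count stayed within 1.5 times of 123. The share of calls that were higher was 62.6% and 72.4% without scaling, 50% with the pseudocount of 0.1 FPKM and 36.4% for genes of at least 1 FPKM. The replicate block kept all 123 calls. In naive cells it called Ecm1 in place of Riox2 and at 12 h Pgam1 in place of Pik3ap1, and it changed no other call of the 123 genes at these stages. Over all genes it called 60 in place of 108 in naive cells, 257 in place of 400 at 12 h, and 352 in place of 204 for the difference between day 5 and 12 h.

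With full-length sites only, 4.41% of all tested genes, 2.17% of the called lower and 4.17% of the called higher genes held a site. Among the genes called with the block the shares were 5.15% of the lower and 3.05% of the higher. Within 2 Mb the calls were 1 near Col1a1 and 0 near Gt(ROSA)26Sor. The cause of the changes between settings was not tested.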
